A study of Mus musculus with 9 samples.

Results

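The genes described here are the antioxidant regulator NRF2, encoded by Nfe2l2, and 9 genes that are commonly read as its targets: Gclc, Gclm, Slc7a11, Txnrd1, Srxn1, Hmox1, Nqo1, Osgin1 and Sod2. They were chosen by name, with earlier results of these data known, and make up 10 of the 27203 genes in the table. The table lists transcripts, so the 18 rows of these genes (of 60108) were summed per gene. All 10 passed the filter on low values and were among the 19378 genes tested. Lung RNA was sequenced from 3 groups of male C57BL/6 mice aged 6 to 8 weeks, with 3 libraries in each group. Control mice were anaesthetised with ketamine and xylazine and intubated but not ventilated. Mice with ventilator-induced lung injury (VILI) received the same anaesthesia with pancuronium and high-stretch ventilation of 20 ml/kg per breath over 4 hours. Lungs of the VILI 0 hours group were taken at the end of ventilation and those of the VILI 6 hours group 6 hours later. No transgene or other treatment was given, and the sources used here do not tie a library to a batch or say that animals were pooled.

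NRF2 is a leucine zipper transcription factor whose amount is set mainly at the level of the protein. In resting cells the adaptor KEAP1 presents it to a CUL3 ubiquitin ligase. Oxidants and electrophiles modify KEAP1, and NRF2 then accumulates, pairs with a small MAF protein and binds antioxidant response elements, from which BACH1 can exclude it. Its targets make glutathione, reduce thioredoxin and peroxiredoxins, degrade haem and reduce quinones, and in the lung the pathway is known for limiting oxidant injury of the epithelium. Several of them have a further regulator: Hmox1 also answers to BACH1, heat shock and inflammatory signals, Slc7a11 to ATF4, and Sod2 mainly to NF-kappaB.

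Expression is given in FPKM, a fragment count scaled to transcript length and to library size. Because the table holds no counts, no counting error can be given for a value, and its precision is read from the 3 libraries of a group. In whole lung, fewer cells of a type and less RNA per cell cannot be told apart. Markers of club cells (led by Scgb1a1 and Cbr2), alveolar type 2 cells (Sftpc and Lyz2) and alveolar type 1 cells (Ager and Hopx) were expressed in all 9 libraries, as the tissue label says. The libraries differed in immune and blood cell markers. The 12 neutrophil markers, led by S100a9 and S100a8, summed to 54.3 to 66.0 FPKM in the controls, to 585 to 1057 FPKM in VILI 0 hours and to 498 to 2218 FPKM in VILI 6 hours. The neutrophil gene Ly6g was at 0 in control replicates 1 and 3, and Camp was at 0 in control replicate 1. Replicates 1 and 3 of VILI 6 hours stood apart. Replicate 3 had the neutrophil sum of 2218 FPKM, against at most 1078 FPKM in the other 8 libraries. Replicate 1 had an erythroid marker sum of 490 FPKM, against 3233 to 5430 FPKM in the other 8, and leaving it out raised the number of genes with an unadjusted P under 0.05 from 3952 to 7526 in VILI 6 hours against control.

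In outline, Nfe2l2 RNA differed from control by less than the spread of its libraries, while Hmox1, Slc7a11 and Txnrd1 were higher in VILI 6 hours than in control at an unadjusted P under 0.05. None of the 10 genes passed that threshold in VILI 0 hours, and none passed after adjustment at either time. The fit pools the spread of all 9 libraries. With only the 6 libraries of VILI 0 hours and control fitted, 3 of the 10 passed, Hmox1 and Slc7a11 as higher and Sod2 as lower. Genes called in all then numbered 5094, against 3130 in the full fit. Hmox1 was the only 1 of the 10 whose VILI libraries lay above every control library at both times. Of all genes, 12% did so in VILI 0 hours and 9.64% in VILI 6 hours, and the share at both times was not computed. Gclc, Gclm, Slc7a11, Txnrd1 and Srxn1 had the same highest library in each group: VILI 6 hours replicate 3, VILI 0 hours replicate 1 and control replicate 2. A gene is called higher or lower here when limma gave an unadjusted P under 0.05, the threshold the study used. The adjusted p beside it is by the Benjamini-Hochberg method over all 19378 genes.

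The start regions of the genes were read for the letters that NRF2 is known to bind. RefSeq promoter windows (GRCm38.p6, 250 bases before a start and 50 after it) were matched for 8 of the 10 genes, with 10 windows in all, since Txnrd1 has several starts. The core of the antioxidant response element, searched on both strands as TGACNNNGC, lay in the 250 bases before a start of Nfe2l2, Gclm and Txnrd1, that is in 3 of the 10 windows, against 10.2% of 32851 promoters. The AP-1 heptamer TGAGTCA overlaps the element where TGACTCA is followed by GC. It lay in the 250 bases before the start in 2 of the 10 windows, those of Srxn1 and Osgin1, against 4.46% of promoters. A match is a description of letters and not of binding. The 250 bases before the starts of Slc7a11, Nqo1 and Sod2 held neither, and the bases after a start were not searched for the 10 genes. The stretches that hold the matches are shown 5′ to 3′ on the strand of the gene, with the matched letters in capitals. They show which of the genes carry the letters close to a start. The Gclm stretch is chr3:122245407-122245556 (plus strand), with the core 134 to 126 bases before the start and on the minus strand.
Gclm: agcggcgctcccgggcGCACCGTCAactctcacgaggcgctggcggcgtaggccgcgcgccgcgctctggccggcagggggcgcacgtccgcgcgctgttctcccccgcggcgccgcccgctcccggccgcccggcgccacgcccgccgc
The Txnrd1 stretch is chr10:82859056-82859178 (plus strand), before an inner start and inside a longer transcript of the gene but outside its exons, with the core 92 to 84 bases before that start.
Txnrd1: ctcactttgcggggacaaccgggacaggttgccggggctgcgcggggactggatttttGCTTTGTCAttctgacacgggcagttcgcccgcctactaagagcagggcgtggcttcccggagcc
The Srxn1 stretch is chr2:152105374-152105515 (plus strand), with AP-1 heptamers 102 to 96 and 45 to 39 bases before the start.
Srxn1: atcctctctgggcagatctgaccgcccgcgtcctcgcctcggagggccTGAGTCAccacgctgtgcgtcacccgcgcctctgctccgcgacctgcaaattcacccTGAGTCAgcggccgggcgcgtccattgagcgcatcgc
The Osgin1 stretch is chr8:119436997-119437117 (plus strand), inside a longer transcript of the gene but outside its exons, with the heptamer on the minus strand.
Osgin1: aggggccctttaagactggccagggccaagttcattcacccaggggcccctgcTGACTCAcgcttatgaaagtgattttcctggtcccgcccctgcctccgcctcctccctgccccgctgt
The Nfe2l2 stretch is chr2:75704884-75704913 (minus strand), 30 bases around its core, which lies 240 to 232 bases before the start and in an exon of the noncoding RNA E030042O20Rik.
Nfe2l2: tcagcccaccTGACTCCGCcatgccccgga

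Nfe2l2 itself (ENSMUSG00000015839, chr2:75675513-75704641, minus strand) was the most highly expressed of the 10 in control on the FPKM scale, at 61.1 ± 3.51 FPKM (SD, n = 3). Control libraries held 63.2, 57.1 and 63.1 FPKM, VILI 0 hours libraries 43.6, 67.5 and 61.8 FPKM, and VILI 6 hours libraries 63.8, 49.96 and 66.5 FPKM. The 3 groups overlapped, and the low values belonged to VILI 0 hours replicate 1 and VILI 6 hours replicate 2. The log2 fold change against control was -0.11 in VILI 0 hours (SE 0.17, 95% interval -0.49 to 0.27, adjusted p = 0.792, limma) and -0.03 in VILI 6 hours (interval -0.42 to 0.35, adjusted p = 0.924), and after each library was centred on its median these differences turned to 0.01 and 0.09. Centring raised the fold changes against control of all genes by 0.115 in VILI 0 hours and by 0.127 in VILI 6 hours. Below Nfe2l2, the mean levels in control were 57.7 ± 6.73 FPKM for Gclc, 29.5 ± 1.95 for Sod2, 24.0 ± 2.75 for Txnrd1, 13.3 ± 1.28 for Hmox1, 10.7 ± 0.878 for Gclm, 10.3 ± 1.07 for Osgin1, 7.29 ± 1.53 for Srxn1, 6.37 ± 4.27 for Nqo1 and 0.736 ± 0.660 for Slc7a11 (SD, n = 3). Of the neighbours in this order, Nfe2l2 and Gclc, Gclm and Osgin1, and Srxn1 and Nqo1 had overlapping control libraries, and the wide control range of Nqo1 overlapped that of Gclm and Osgin1 too.

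Among the genes of glutathione synthesis, Gclc, the catalytic subunit of glutamate-cysteine ligase and the rate-limiting step of the pathway (ENSMUSG00000032350, chr9:77754535-77794485, plus strand), had 54.3, 65.4 and 53.3 FPKM in control. In VILI 0 hours it had 121, 41.6 and 45.2 FPKM, and in VILI 6 hours 74.2, 74.3 and 192 FPKM. All 3 VILI 6 hours libraries were above all controls, whereas in VILI 0 hours replicate 1 was above them and the other two below. The log2 fold change was 0.83 in VILI 6 hours (SE 0.45, interval -0.18 to 1.83, adjusted p = 0.315) and 0.09 in VILI 0 hours (interval -0.92 to 1.09), and neither passed. Without VILI 0 hours replicate 1, Gclc passed in VILI 6 hours against control with the same fold change and a SE of 0.33. Its VILI 0 hours value without that library turned to -0.40 and did not pass. The VILI 6 hours value was 0.37 without replicate 3 of that group and did not pass.

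Gclm, the modifier subunit of the same ligase (ENSMUSG00000028124, chr3:122245557-122270732, plus strand), moved less. Its control libraries held 9.94, 11.6 and 10.4 FPKM, those of VILI 0 hours 11.2, 9.61 and 10.5 FPKM, and those of VILI 6 hours 8.72, 13.5 and 15.1 FPKM. VILI 6 hours held both its lowest and its 2 highest values, so the groups overlapped. The log2 fold change was -0.03 in VILI 0 hours (interval -0.46 to 0.39), which turned to 0.08 after median centring, and 0.18 in VILI 6 hours (interval -0.24 to 0.61, adjusted p = 0.594). Without VILI 6 hours replicate 1 the latter was 0.42 and passed, and without replicate 3 of that group it was 0.03. Of the 5 rows of Gclm, 3 were above 0 in some library and row 3 held nearly all of the signal, with a mean of 10.5 FPKM over the 9 libraries.

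Slc7a11, the cystine importer that feeds glutathione synthesis (ENSMUSG00000027737, chr3:49892526-50443614, minus strand), had the widest range. It was the lowest of the 10 in control, with 0.286, 1.49 and 0.427 FPKM. VILI 0 hours libraries had 2.59, 1.12 and 2.03 FPKM, and VILI 6 hours libraries 1.24, 2.45 and 29.3 FPKM. Control replicate 2 lay among the VILI libraries, so the groups overlapped, and VILI 6 hours replicate 3 lay far above all others. It was higher in VILI 6 hours than in control by a log2 fold change of 2.76 (SE 1.01, interval 0.49 to 5.02, adjusted p = 0.181), on a scale with 0.1 FPKM added. The call stayed without VILI 6 hours replicate 3, with a log2 fold change of 1.43 (SE 0.61). It was lost without control replicate 1 (2.34, SE 1.15) or control replicate 3 (2.57, SE 1.19). The value in VILI 0 hours was 1.48 (SE 1.01, adjusted p = 0.513), and it passed in the 8 libraries without VILI 6 hours replicate 3. Nearly all of the signal was in 1 of its 2 rows.

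**Figure D1:**
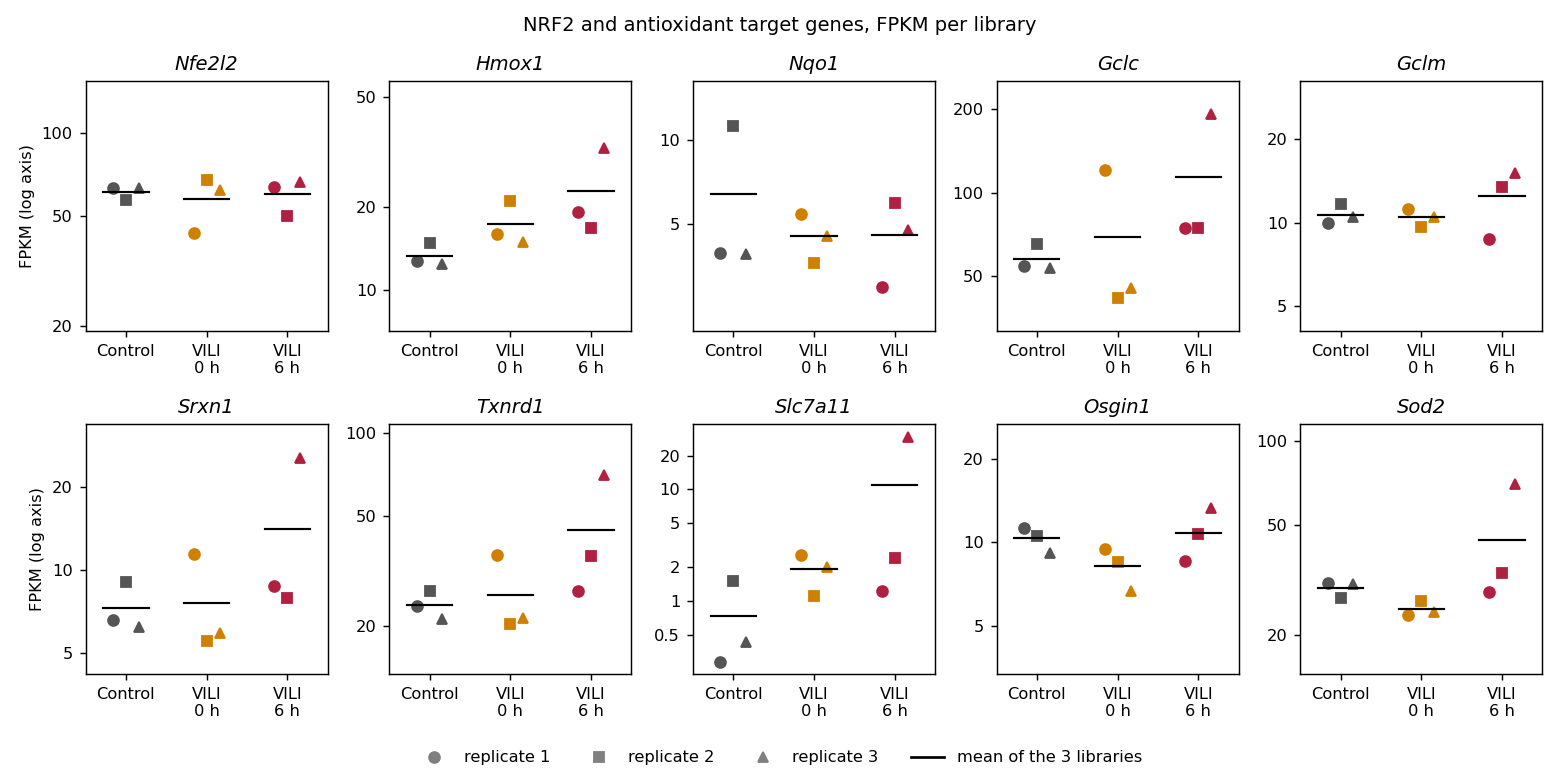
FPKM of the 10 genes in each of the 9 libraries, on log axes, with control in grey, VILI 0 hours in orange and VILI 6 hours in red, the symbol giving the replicate number and the bar the mean of the 3 libraries. VILI 6 hours replicate 3 (red triangle) is the highest of the 9 libraries for 8 of the 10 genes, and Nfe2l2 stays between 43.6 and 67.5 FPKM.

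Of the thioredoxin and peroxiredoxin branch, Txnrd1, the cytosolic thioredoxin reductase (ENSMUSG00000020250, chr10:82833951-82897712, plus strand), had 23.7, 26.8 and 21.3 FPKM in control. It had 36.0, 20.4 and 21.4 FPKM in VILI 0 hours and 26.8, 35.8 and 70.5 FPKM in VILI 6 hours. The lowest VILI 6 hours library was level with the highest control, so the groups just overlapped. The gene was higher in VILI 6 hours by a log2 fold change of 0.77 (SE 0.33, interval 0.02 to 1.52, adjusted p = 0.234). This call was lost without VILI 6 hours replicate 3 (0.38), without replicate 2 of that group (0.86), with any 1 control library left out (0.69 to 0.86) and without VILI 0 hours replicate 3 (0.77 with a SE of 0.35). Without VILI 6 hours replicate 1 it passed at 1.07. The log2 fold change in VILI 0 hours was 0.07 (interval -0.68 to 0.82).

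Srxn1, sulfiredoxin, which restores over-oxidised peroxiredoxins (ENSMUSG00000032802, chr2:152105516-152111376, plus strand), had 6.59, 9.05 and 6.23 FPKM in the controls, 11.4, 5.55 and 5.92 FPKM in VILI 0 hours and 8.78, 7.94 and 25.4 FPKM in VILI 6 hours. One library in each VILI group, replicate 1 at 0 hours and replicate 3 at 6 hours, exceeded every control, and the other 4 lay below the highest control. Neither the log2 fold change of 0.75 in VILI 6 hours (SE 0.43, interval -0.23 to 1.72, adjusted p = 0.346) nor that of 0.01 in VILI 0 hours (interval -0.97 to 0.98) passed. The former was 0.21 without VILI 6 hours replicate 3.

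Hmox1, the inducible haem oxygenase (ENSMUSG00000005413, chr8:75093621-75100589, plus strand), separated the groups most evenly. Control libraries held 12.8, 14.8 and 12.4 FPKM, VILI 0 hours libraries 16.04, 21 and 15.01 FPKM, and VILI 6 hours libraries 19.1, 16.8 and 32.7 FPKM. All 6 VILI libraries were above all 3 controls, although the VILI 0 hours minimum was only just so, and the VILI groups overlapped each other. In VILI 6 hours the log2 fold change was 0.72 (SE 0.23, interval 0.19 to 1.24, P = 0.0125, adjusted p = 0.149, exact permutation p = 0.1, the smallest that 3 against 3 allows). Hmox1 also passed in each of the other settings and with each library left out in turn, and the fold change without VILI 6 hours replicate 3 was 0.43 (SE 0.16). At 0 hours it was 0.37 (SE 0.23, interval -0.16 to 0.89, adjusted p = 0.478), and without VILI 6 hours replicate 3 the same difference passed.

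Markers of macrophages moved in part with Hmox1. The 10 monocyte and interstitial macrophage markers, led by Plac8 and C1qa, summed to 138 to 140 FPKM in the controls, to 129, 240 and 122 FPKM in VILI 0 hours and to 226, 180 and 293 FPKM in VILI 6 hours, so in each VILI group the libraries ranked as they did for Hmox1. Of the 10, 5 were higher in VILI 6 hours (8.17% of all genes) and 0 in VILI 0 hours (6.81%), and none of the 10 was at 0 in any library. Replicates 1 and 3 of VILI 0 hours had a sum below every control and Hmox1 above every control. The alveolar macrophage markers, led by Chil3 and Car4, summed to 339 to 419 FPKM in the controls, 494 to 570 FPKM in VILI 0 hours and 360 to 750 FPKM in VILI 6 hours. Of these 10, 6 were higher in VILI 0 hours (6.81% of all genes), where all 10 had log2 fold changes above 0, and 3 were higher (8.17%) and 1 lower (12.2%) in VILI 6 hours. The part of either cell type in the Hmox1 values was not tested.

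Nqo1, the quinone reductase often used as the reference NRF2 target (ENSMUSG00000003849, chr8:107388225-107403206, minus strand), had 3.93, 11.3 and 3.88 FPKM in the controls, 5.42, 3.62 and 4.52 FPKM in VILI 0 hours and 2.96, 5.91 and 4.75 FPKM in VILI 6 hours. Its highest value of all 9 was in control replicate 2, and the groups overlapped. The log2 fold change was -0.32 in VILI 0 hours (SE 0.41, interval -1.23 to 0.60) and -0.35 in VILI 6 hours (interval -1.26 to 0.57), and without control replicate 2 both changed sign, to 0.19 and 0.16. With intervals this wide, a rise or a fall of Nqo1 was not detectable in these libraries.

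Osgin1, an oxidative stress induced growth inhibitor (ENSMUSG00000074063, chr8:119434124-119446256, plus strand), had 11.3, 10.5 and 9.16 FPKM in the controls, 9.47, 8.49 and 6.69 FPKM in VILI 0 hours and 8.55, 10.7 and 13.3 FPKM in VILI 6 hours. Its VILI 0 hours values lay in the lower part of the control range or below it, and those of VILI 6 hours below, within and above it. The log2 fold change was -0.34 in VILI 0 hours (SE 0.19, interval -0.75 to 0.08, adjusted p = 0.414) and 0.05 in VILI 6 hours (interval -0.37 to 0.47). Between VILI 6 hours and VILI 0 hours it was 0.39 (SE 0.19, interval -0.03 to 0.80, adjusted p = 0.526) and did not pass. With 1 library left out this difference ran from 0.23 to 0.54 and passed only when replicate 1 of the earlier (0.49) or of the later (0.54) VILI group was the one left out. Of its 4 rows, 3 were above 0 in some library, and row 1 carried most of the signal at a mean of 9.39 FPKM.

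Sod2, the mitochondrial superoxide dismutase (ENSMUSG00000006818, chr17:13006846-13040063, plus strand), differed between the VILI groups. It had 30.8, 27.3 and 30.5 FPKM in the controls, 23.6, 26.5 and 24.2 FPKM in VILI 0 hours and 28.6, 33.4 and 70.4 FPKM in VILI 6 hours. All VILI 0 hours libraries were below all others, and VILI 6 hours overlapped control. It was higher in VILI 6 hours than in VILI 0 hours by a log2 fold change of 0.71 (SE 0.28, interval 0.10 to 1.33, P = 0.0280, adjusted p = 0.440, exact permutation p = 0.1). This call was lost without VILI 0 hours replicate 1 (0.68) or replicate 3 (0.70), after median centring (0.73) and in a fit of the 6 VILI libraries alone. Without VILI 6 hours replicate 3 it passed at a smaller size, 0.32 (SE 0.11). Against control the log2 fold change was -0.25 in VILI 0 hours (SE 0.28, adjusted p = 0.697) and 0.46 in VILI 6 hours (SE 0.28, adjusted p = 0.356). The former passed at the same size without VILI 6 hours replicate 3, and the latter passed at 0.72 without VILI 6 hours replicate 1 and was 0.07 without replicate 3 of that group.

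**Figure D2:**
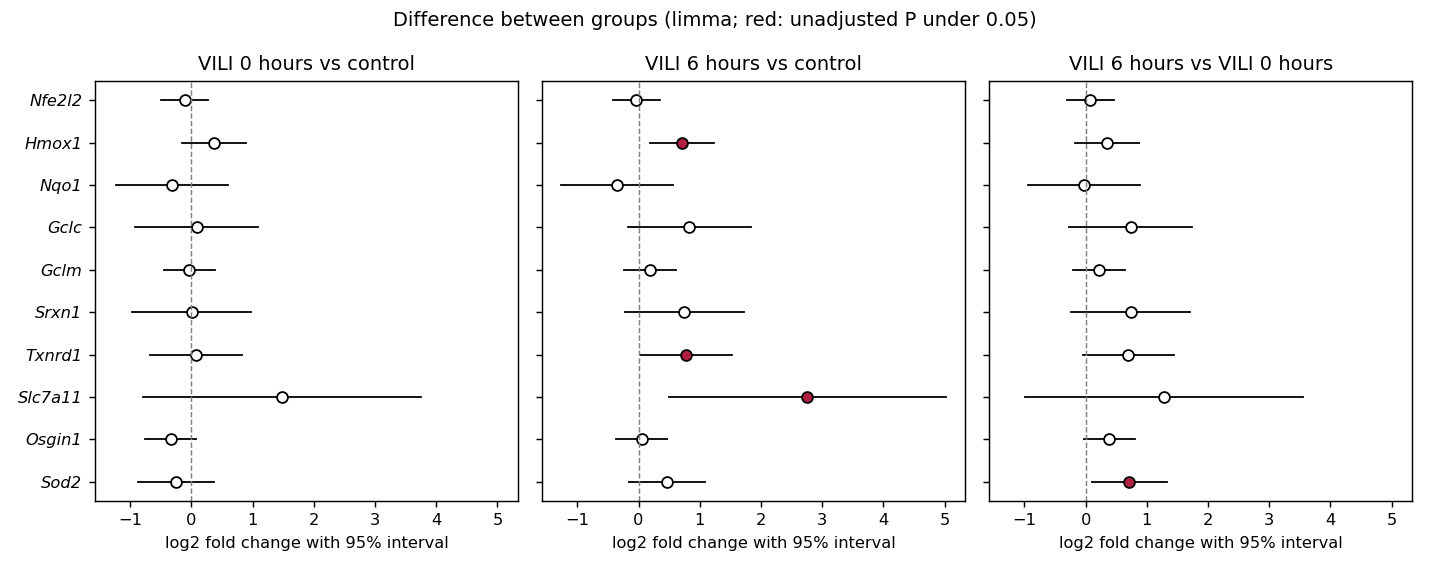
Log2 fold change of each gene in the 3 comparisons, with the 95% interval of the limma fit as a line (3 libraries a group) and filled red points for an unadjusted P under 0.05. Red points are Slc7a11, Txnrd1 and Hmox1 in VILI 6 hours against control and Sod2 in VILI 6 hours against VILI 0 hours, and the interval of Nfe2l2 is the narrowest in each comparison.

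Counted together, 0 of the 10 genes were called in VILI 0 hours against control, where 6.81% of all genes were higher and 9.35% lower. At 6 hours against control 3 of 10 were higher, against 8.17% of all genes, and 0 were lower, against 12.2%. Between VILI 6 hours and VILI 0 hours 1 of 10 was higher (5.06% of all genes) and 0 lower (4.94%). At an adjusted p under 0.05 limma called 0 of the 10 in each comparison, against 0.284%, 0.702% and 0% of all genes. Leaving out 1 library in turn moved the 3 counts of called members within 0 to 3, 1 to 5 and 0 to 5. The count of 0 in VILI 0 hours became 3 (Hmox1, Slc7a11 and Sod2) without VILI 6 hours replicate 3. The count in VILI 6 hours became 1 without control replicate 1 or 3 and 5 without VILI 6 hours replicate 1, where Sod2 and Gclm joined the 3, and Hmox1, Slc7a11, Txnrd1 and Gclm passed after adjustment as well, as they did in no other setting. The count between the VILI groups became 0 without VILI 0 hours replicate 3, 4 without VILI 0 hours replicate 1 and 5 without VILI 6 hours replicate 1. Of all 19378 genes, 3130, 3952 and 1938 were called in the 3 comparisons with all libraries. These numbers were 4493, 7526 and 4350 without VILI 6 hours replicate 1, and 3900, 2735 and 1876 without replicate 3 of that group. In VILI 6 hours they were 2787 and 2573 without control replicates 1 and 3. Between the VILI groups they were 1903 and 1407 without VILI 0 hours replicates 1 and 3.

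By overlap alone, 1 of the 10 (Hmox1) was above control in every VILI 0 hours library (12% of all genes) and 1 (Sod2) below it (21.6%). For VILI 6 hours 2 (Hmox1 and Gclc) were above every control (9.64%) and 0 below (15%). Between the VILI groups 1 (Sod2) was higher at 6 hours without overlap (6.25%) and 0 lower (6.28%). The median log2 fold change of the 10 was -0.01, 0.59 and 0.54 in the 3 comparisons, beside -0.07, -0.09 and -0.02 for all genes tested. Among the called genes of the whole table, 42.1% were higher in VILI 0 hours and 40.1% in VILI 6 hours, and these shares became 61.2% and 58.1% after median centring. The comparisons with control share the same 3 control libraries.

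The genes were also read library by library. The order of the libraries was seen in the values first and is given as a description. VILI 6 hours replicate 3 was the highest of its group for 9 of the 10 genes (25.4% of all genes) and the highest of the 9 libraries for 8 of them (13.9%). VILI 0 hours replicate 1 led its group for 7 of the 10 (34.2%), and control replicate 2 led control for 7 of the 10 (31.7%). These 3 libraries all led their groups for 5 genes, Gclc, Gclm, Slc7a11, Txnrd1 and Srxn1, against 3.72% of all genes. Taken over the 10 genes, the median difference from the control mean on the log2 scale was 0.17, -0.19 and -0.22 in the VILI 0 hours libraries and 0.12, 0.26 and 1.27 in the VILI 6 hours libraries. In the 3 VILI 6 hours libraries 6, 9 and 9 of the 10 genes lay above their control mean, as did 52.0%, 41.6% and 37.0% of all genes. The fitted log2 fold change was above 0 for 8 of the 10 in VILI 6 hours against control and for 9 against VILI 0 hours, beside 40.05% and 46.3% of all genes. Over all genes the same medians were between -0.19 and 0.01, and that of VILI 6 hours replicate 3 was the lowest.

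**Figure D3:**
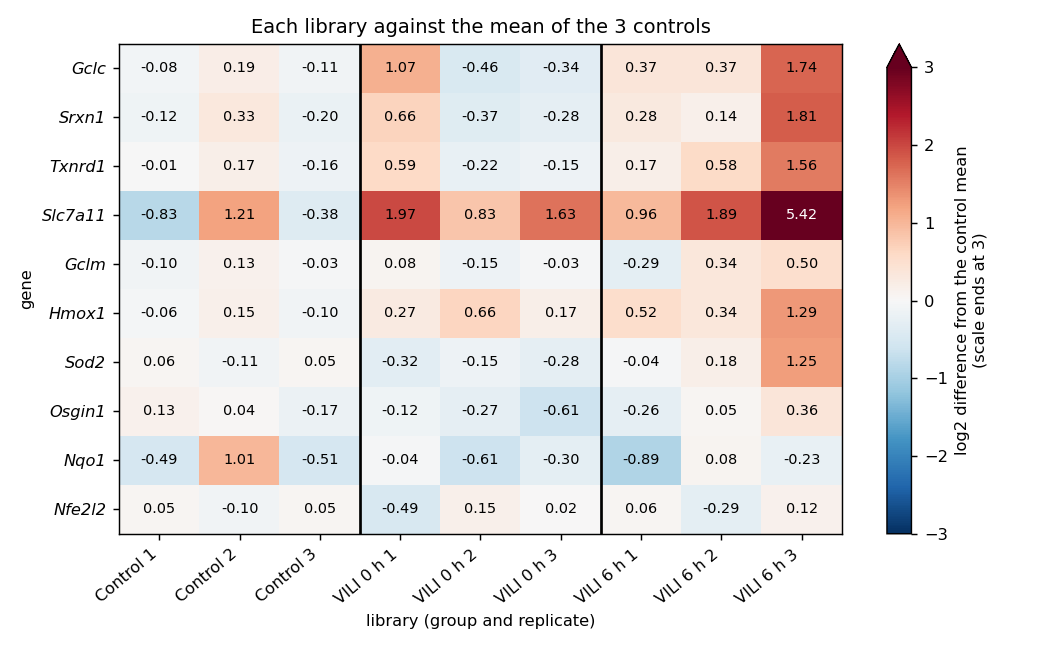
Log2 difference of each library from the mean of the 3 control libraries, one row per gene and one column per library, red for higher and blue for lower, with the value printed in each cell. VILI 0 hours replicate 1 and VILI 6 hours replicate 3 are red for Gclc, Srxn1, Txnrd1 and Slc7a11, while the other VILI 0 hours libraries are blue for Gclc, Srxn1 and Txnrd1.

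Gclc, Srxn1 and Txnrd1 followed each other most closely. Over the 9 libraries, Pearson r on the log2 scale was 0.97 for Gclc with Srxn1, 0.96 for Gclc with Txnrd1 and 0.96 for Srxn1 with Txnrd1. Over the 8 libraries without VILI 6 hours replicate 3 it was 0.96, 0.90 and 0.85. Sod2 and Hmox1 did not keep to this order: r of Gclc with Sod2 was 0.68 over 9 libraries and -0.13 over 8, and r of Gclc with Hmox1 was 0.64 and 0.05. Nfe2l2 ran the other way over the 8 libraries, with r of -0.86 to Gclc and -0.90 to Txnrd1, and showed little relation over all 9 (-0.30 and -0.20). These values share the libraries and their groups and are given without a test. With both VILI 0 hours replicate 1 and VILI 6 hours replicate 3 left out, 3, 3 and 4 of the 10 genes were called in the comparisons. Of all 19378 genes, 3303, 2942 and 1928 were called there. Gclc then had log2 fold changes of -0.40 in VILI 0 hours and 0.37 in VILI 6 hours against control. Since these libraries were picked by the values of the same genes, the counts support nothing.

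Cell markers did not rank the libraries in the same way throughout. The neutrophil sum was highest in VILI 6 hours replicate 3 (2218 FPKM), but in VILI 0 hours replicate 1 it was the lowest of its group (585 FPKM, against 1057 and 937 FPKM), and in control replicate 2 the lowest of control (54.3 FPKM). Of the 12 neutrophil markers, 10 were higher in VILI 0 hours (6.81% of all genes) and 11 in VILI 6 hours (8.17%). Of them, 6 and 8 had an adjusted p under 0.05 with limma, beside 0.284% and 0.702% of all genes. The erythroid sum, in contrast, was highest in the same 3 libraries as Gclc. It was 4194 FPKM in control replicate 2, against 3419 and 3233 FPKM in the other controls. In VILI 0 hours replicate 1 it was 5430 FPKM, against 5166 and 4930 FPKM. In VILI 6 hours replicate 3 it was 3877 FPKM, against 490 and 3460 FPKM. Of its 8 markers, 2 were led by these 3 libraries. The part of neutrophil RNA in the values of VILI 6 hours replicate 3, and that of erythroid RNA in the order of the libraries, was not tested.

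The genes of the whole table most like the 3 members with the smallest P against control were named by their Pearson r over the 9 libraries, among 13059 genes. Hmox1 was most like Batf (r = 0.97), Tnfsf9 (0.96) and Ly6c2 (0.95), the last of which is in the monocyte marker list. Slc7a11 was most like Cp (0.97), Ninj1 (0.96) and Lcn2 (0.96). Txnrd1 was most like Akr1b8 (0.99), Qrich1 (0.98) and Nek2 (0.98), and Akr1b8, an aldo-keto reductase, is itself in the list of further NRF2 targets. Without VILI 6 hours replicate 3 these values were 0.85 to 0.96.

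Of 15 regulators around NRF2 tested, 3 were higher and 2 lower in VILI 0 hours, and 3 were higher and 0 lower in VILI 6 hours. The shares of all genes against which this and the following lists are read were 6.81% higher and 9.35% lower in VILI 0 hours and 8.17% higher and 12.2% lower in VILI 6 hours. With lists of this size, a count that differs from those shares by a few genes is not a result about the list. The higher ones were the small MAF genes Mafk and Maff, partners of NRF2, and Bach1, its competitor at the response element. Mafk had 17.3, 16.5 and 16.2 FPKM in the controls, 34.7, 24.5 and 33.5 FPKM in VILI 0 hours and 22.7, 33.0 and 35.6 FPKM in VILI 6 hours, and every VILI library was above every control. Its log2 fold change was 0.87 (adjusted p = 0.0768) and 0.84 (adjusted p = 0.0723). Maff changed by 1.55 and 1.67 and Bach1 by 0.41 and 0.47, with adjusted p of 0.112 to 0.211. The median over the 15 was 0.15 and 0.10. Leaving out 1 library moved the count of 5 in VILI 0 hours to 3 for control replicates 1 and 3 and VILI 0 hours replicates 2 and 3, and that of 3 in VILI 6 hours to 6 and 5 for VILI 6 hours replicates 1 and 2.

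Of 23 further glutathione and thioredoxin genes tested, 4 were higher and 3 lower in VILI 0 hours, and 4 higher and 2 lower in VILI 6 hours, with a median log2 fold change of -0.10 and -0.05. The lower counts are near or under the shares of all genes (9.35% and 12.2%). Of the 23, 2 were led by the same 3 libraries as Gclc. Gsr, glutathione reductase, had the smallest P among them. It held 23.2, 24.7 and 22.1 FPKM in the controls, 40.4, 39.4 and 40.9 FPKM in VILI 0 hours and 46.2, 47.9 and 67.8 FPKM in VILI 6 hours. The 3 groups did not overlap at any point, and the log2 fold change was 0.78 in VILI 0 hours (SE 0.14, adjusted p = 0.0627) and 1.19 in VILI 6 hours (SE 0.14, adjusted p = 0.0216). Slc3a2, the heavy chain that pairs with the Slc7a11 protein, rose by 0.60 and 0.83, and Gsta3, a glutathione transferase, fell by 0.21 and by 0.47 on the log2 scale. Of these 3 genes, only Gsr passed after adjustment, at 6 hours. The count of 7 called at 0 hours became 3 or 4 without control replicate 2 or 3 or VILI 0 hours replicate 1 or 2, and the 6 called at 6 hours became 3 without control replicate 2 and 9 with VILI 6 hours replicate 1 left out.

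Of 20 detoxication, NADPH and carbonyl enzymes tested, 1 was higher and 3 lower in VILI 0 hours, and 3 were higher and 5 lower in VILI 6 hours, beside 6.81% and 9.35% of all genes at 0 hours and 8.17% and 12.2% at 6 hours. The 3 that were higher at 6 hours were the dehydrogenases G6pdx (log2 fold change 0.54) and Pgd (0.48), which make NADPH, and the transaldolase Taldo1 (0.27), which was named after its value was seen. Tkt, Me1 and Idh1 of the same list were not called, with values of 0.04, 0.03 and -0.18 at that time. Ephx1, microsomal epoxide hydrolase, fell by 0.31 in VILI 0 hours and by 0.60 in VILI 6 hours. None of the 20 passed after adjustment with limma. The median over the list was -0.07 and 0.04, with 8 and 11 of the 20 above 0, and 2 of the 20, Akr1b8 and Pgd, were led by the same 3 libraries as Gclc (3.72% of all genes). The 4 called at 0 hours became 1 or 2 with any 1 control library, or VILI 0 hours replicate 3, left out, and the 8 called at 6 hours became 5 without control replicate 2.

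Of 15 haem and iron genes tested, 4 were higher and 1 lower in VILI 0 hours and 5 higher and 1 lower in VILI 6 hours. The median log2 fold change was 0.13 and 0.06, with 9 of the 15 above 0 at both times, beside 40.9% and 40.05% of all genes. Slc11a1, an iron and manganese transporter of phagosomes, had 3.47, 3.33 and 2.72 FPKM in the controls, 3.41, 5.42 and 5.35 FPKM in VILI 0 hours and 7.92, 6.80 and 9.97 FPKM in VILI 6 hours, where it lay above all other libraries (log2 fold change 1.34, adjusted p = 0.0311). Tfrc, the transferrin receptor, fell by 0.85 and by 0.95, and Lcn2, the siderophore binder lipocalin 2, rose by 2.18 in VILI 6 hours, with 881 FPKM in replicate 3 against 152 and 182 FPKM in the others. The neutrophil sum was 498, 1078 and 2218 FPKM in the same 3 libraries, against at most 66.0 FPKM in control, and its part in the Slc11a1 and Lcn2 values was not tested. With control replicate 2 or 3 or VILI 0 hours replicate 2 or 3 left out, 2 or 3 of the 15 were called at 0 hours.

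Of 27 other antioxidant and oxidase genes, 6 were higher and 2 lower in VILI 0 hours and 5 higher and 7 lower in VILI 6 hours. The shares of all genes were 6.81% and 9.35%, then 8.17% and 12.2%, and the 2 lower at 0 hours are under theirs. Among them Ncf4, a subunit of the phagocyte NADPH oxidase, which makes superoxide and does not remove it, rose by 1.05 and glutaredoxin Glrx by 0.66 in VILI 6 hours. The neutrophil sum was also higher in every VILI library than in control, and its part in the Ncf4 value was not tested. Of the 27, 12 were called in VILI 6 hours with all libraries, 19 without VILI 6 hours replicate 1, 6 without VILI 6 hours replicate 3 and 7 without control replicate 3. The 8 called in VILI 0 hours became 4 or 5 with any 1 control library, or VILI 0 hours replicate 2 or 3, left out.

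**Figure D4:**
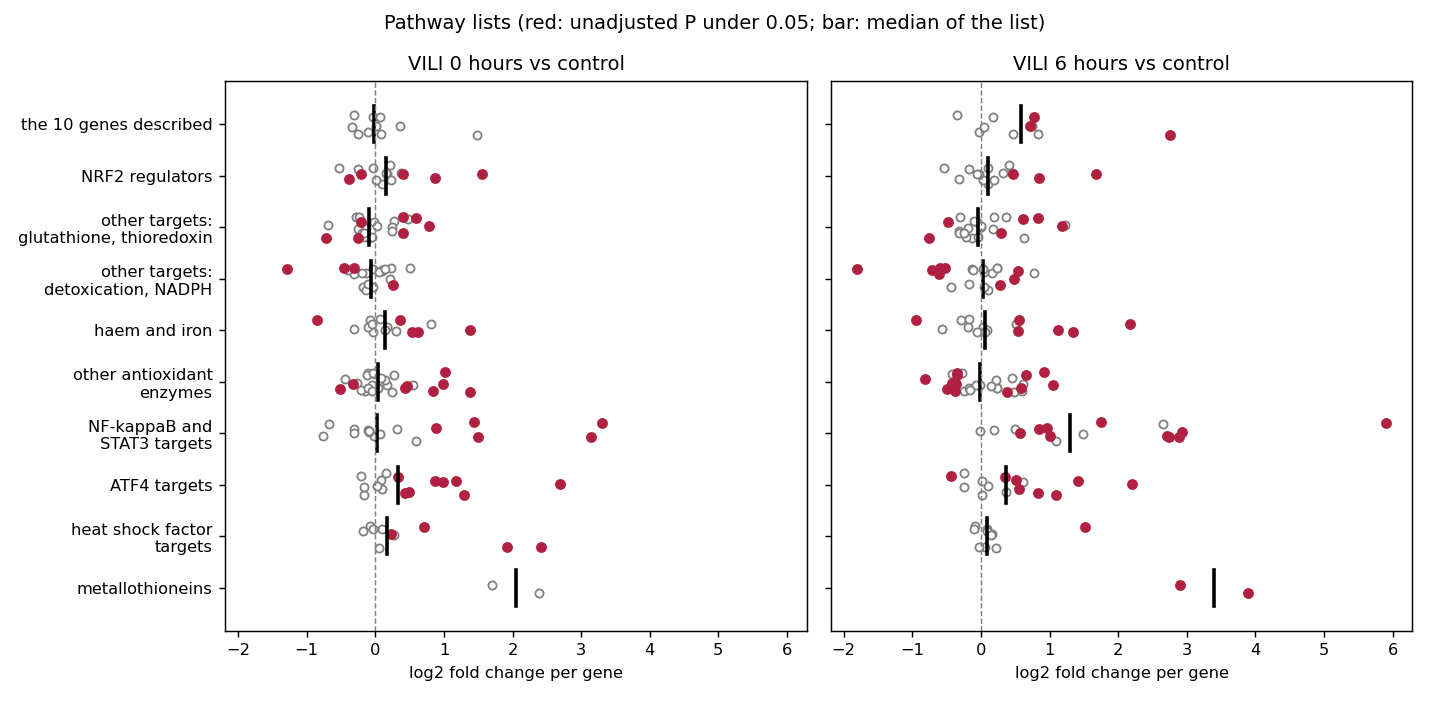
Log2 fold change of every gene tested in each list, in VILI 0 hours (left) and VILI 6 hours (right) against control, red for an unadjusted P under 0.05, grey for others, with a black bar at the median of the list. At 6 hours the median is 0.59 for the 10 genes described, 1.29 for the NF-kappaB and STAT3 list and 3.40 for the 2 metallothioneins. The lists of other NRF2 targets stay centred near 0.

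The other pathways known to act on these genes were set beside them. Of 16 NF-kappaB and STAT3 targets, 5 were higher in VILI 0 hours and 10 in VILI 6 hours, with none lower and a median log2 fold change of 0.02 and 1.29. The STAT3 feedback inhibitor Socs3 rose by 1.5 and 2.74 and the cytokine Il1b by 3.14 and 2.88, and the chemokine Ccl2 rose by 2.72 in VILI 6 hours, with a value of -0.76 in VILI 0 hours. The neutrophil sum was also higher in every VILI library than in control, and its part in the values of the 16 genes was not tested. All 16 were highest in VILI 6 hours replicate 3, as were 8 of the 10 members, Sod2 among them, 11 of the 12 neutrophil markers and 13.9% of all genes. Without that library 5 of the 16 were called in VILI 6 hours, against 6 and 5 without control replicates 1 and 3. The 5 called in VILI 0 hours became 1 to 3 with any 1 control library, or VILI 0 hours replicate 2 or 3, left out. Of 15 ATF4 targets, the pathway known beside Slc7a11, 8 were higher in VILI 0 hours and 7 higher and 1 lower in VILI 6 hours, with a median of 0.32 and 0.36. Among them Mthfd2, a mitochondrial folate enzyme, rose by 0.44 and 0.83, whereas Cth (0.87) and Sesn2 (0.99) rose in VILI 0 hours and had values of 0.01 and 0.61 in VILI 6 hours. Without VILI 6 hours replicate 3, 5 of the 15 were called in VILI 6 hours, and 5 and 3 were called in VILI 0 hours without control replicate 2 and VILI 0 hours replicate 1.

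Of 10 heat shock factor targets, the pathway known beside Hmox1, 4 were higher in VILI 0 hours and 1 in VILI 6 hours. The inducible chaperones Hspa1a and Hspa1b, near-identical genes whose reads can be split between them, rose by 2.41 and 1.92 in VILI 0 hours and had values of 0.07 and -0.03 in VILI 6 hours. Hspb1 rose at both times, by 0.71 and by 1.52 (adjusted p = 0.0217 for the latter), and without VILI 6 hours replicate 1 the count at 6 hours was 4. The metallothioneins Mt1 and Mt2 bind zinc and copper. Mt2 had 13.6, 19.1 and 13.6 FPKM in the controls, 130, 55.2 and 72.6 FPKM in VILI 0 hours and 23.0, 455 and 1126 FPKM in VILI 6 hours. Both genes were higher in VILI 6 hours (2.90 for Mt1 and 3.89 for Mt2), both were led by the same 3 libraries as Gclc, and both were near control in VILI 6 hours replicate 1. At 0 hours neither passed, with values of 1.70 and 2.39, and both passed there without VILI 6 hours replicate 1 or replicate 3.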

How the data were processed

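Lung RNA of 9 libraries in 3 groups of 3 was taken as grouped by the sample labels. The table deposited by the authors holds FPKM per transcript. The submitters' processing notes name TopHat2 2.0.9, Bowtie2 2.0.6, Cuffdiff 2.1.1 and GRCm38. Reads had been filtered for adapters and quality, and transcripts assembled with Scripture and Cufflinks. Labels and methods name different library kits and sequencers, which could change which RNAs were captured. The annotation release was not given in the sources used here, so names and positions came from GENCODE M21 (GRCm38), which matched 23503 of 23713 Ensembl gene IDs. Column sums ran from 366360 to 388459 FPKM.

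FPKM were summed per gene and genes with a mean of at least 0.1 FPKM kept (19378). All 9 libraries entered a single linear model with a term for group, fitted by limma (version 3.58.1, R 4.3.3) with trended empirical Bayes moderation. The response was log2(FPKM + 0.1), which understates changes of genes near 0.1 FPKM. Single genes were also tested by two-sided exact permutation, which cannot go below 0.1. The procedure was tested on simulated data. Limma P-values measure the spread of libraries within groups, taken as 1 value per gene over all 9 libraries and moderated across genes. Libraries were taken to be separate mice. The spread of VILI 6 hours therefore enters the comparison of VILI 0 hours with control. There Sod2 had a SE of 0.28, and of 0.08 with only the 6 libraries compared. The members and lists were chosen with earlier results of these data known. All 10 members were named, with, from each list, up to 3 genes with the smallest P under 0.05 and a mean of at least 1 FPKM, and from each marker list the 2 most highly expressed; 1 gene that this rule names is not reported here. Alternatives were pseudocounts of 0.01 and 1, a filter at 1 FPKM, no filter, median centring, the row with the highest mean, fits of 6 libraries, blocking on the replicate number, untrended moderation, and leaving out single libraries. Leaving out 2 libraries together was added after seeing the data. Python 3.11.15, pandas 2.3.3, numpy 2.4.6, scipy 1.17.1 and matplotlib 3.10.9 were also used.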

Additional observations from a re-analysis of the deposited data

Results flagged for a closer look

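For these genes the difference between VILI 6 hours and VILI 0 hours itself had an unadjusted P under 0.05 with limma, so their values against control differed between the times; none of them passed after adjustment over all genes. Sod2 was the only member, with a log2 fold change of 0.71 at 6 hours against 0 hours. Only the list genes named by the rule given above were looked at here. Of these, the values at 6 hours were higher for Ccl2 (3.48), Lcn2 (1.37), Hspb1 (0.81), Slc11a1 (0.80), G6pdx (0.44), Gsr (0.40), Mthfd2 (0.40), Glrx (0.39) and Pgd (0.26 to 2 decimals). They were lower for Hspa1a (-2.35), Hspa1b (-1.95), Cth (-0.86), Ephx1 (-0.30) and Gsta3 (-0.26). Further genes of the lists passed and are not named here. Of the 16 NF-kappaB and STAT3 targets, for example, 7 were higher at 6 hours than at 0 hours (5.06% of all genes).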

How the results depend on the processing

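Hmox1 kept its call in VILI 6 hours under every alternative run. Members called in the 3 comparisons numbered 0, 3 and 1. With only the 6 libraries compared they numbered 3, 2 and 0, with median centring 0 remained between the VILI groups, and without both VILI 0 hours replicate 1 and VILI 6 hours replicate 3 (chosen after seeing the data) they numbered 3, 3 and 4. With 1 library left out they ran from 0 to 3, 1 to 5 and 0 to 5. Genes called in all numbered 3130, 3952 and 1938, and 3303, 2942 and 1928 without both of those libraries. With 6 libraries they numbered 5094 in VILI 0 hours against control and 1210 between the VILI groups, and with 1 library left out they ran from 1979 to 4493, 2543 to 7526 and 1407 to 4350. Same-numbered libraries did not deviate together (r of -0.22 to 0.02), so the numbers do not pair them. With the replicate block 0, 2 and 1 members were called, and Txnrd1 lost its call, as it did without a filter, with the highest row, in 6 libraries and without a trend.

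Several values that were not called changed sign. With 1 library left out, VILI 0 hours against control ran from -0.235 to 0.0808 for Nfe2l2, -0.572 to 0.187 for Nqo1, -0.403 to 0.364 for Gclc, -0.0868 to 0.0314 for Gclm, -0.322 to 0.193 for Srxn1 and -0.190 to 0.219 for Txnrd1. VILI 6 hours against control ran from -0.1125 to 0.0936 for Nfe2l2, -0.601 to 0.158 for Nqo1 and -0.105 to 0.209 for Osgin1. The difference between the VILI groups ran from -0.115 to 0.202 for Nfe2l2, -0.243 to 0.244 for Nqo1 and -0.0504 to 2.18 for Slc7a11, which passed at 2.18, without VILI 6 hours replicate 1. After median centring Nfe2l2 was at 0.0065 and 0.0931 and Gclm at 0.0825. Without both of those libraries Nfe2l2 was at 0.0808 and, between the VILI groups, at -0.193, Nqo1 there at 0.0492, Gclc at -0.403, which passed, Srxn1 at -0.322, Txnrd1 at -0.190 and Osgin1 at -0.105. The cause was not tested. With 3 libraries a group and no counts, changes inside the intervals given are not resolved.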
